A study of Mus musculus with 2 samples.

Results

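Total RNA of erythroblasts, which are red cell precursors that still have a nucleus, was read for the 10 genes Ccnd2, Ccnd3, Ccne1, Ccna2, Cdk4, Cdk6, Cdkn1a, Cdkn1b, Cdkn2c and Cdkn2d. These encode G1 and S phase cyclins, the kinases of the D cyclins, and inhibitors of cyclin-dependent kinases. They were chosen by symbol, and all 10 were found among the 43346 gene rows of the deposited tables, with 50 transcript rows. The cells were from C57BL/6J mice, adult and male, 5 to 6 weeks old, with no treatment or genetic change in the labels. Both libraries, replicates 1 and 2, form 1 group, so there was no contrast between conditions and no p-value. The labels give the replicates separate biosamples under a single donor entry and do not say whether these were separate animals, so the spread between them may be technical. The labels link an isolation protocol for bone marrow, which was not used here.

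Cells pass from G1 into S phase when cyclin-dependent kinases phosphorylate the retinoblastoma proteins, which releases E2F transcription factors. D cyclins with Cdk4 or Cdk6 begin this step, and E and A cyclins with Cdk2 complete it and carry the cell through replication. INK4 inhibitors bind Cdk4 and Cdk6, and Cip/Kip inhibitors bind cyclin and kinase complexes more broadly. Erythroblasts couple their last divisions to maturation and leave the cell cycle before the nucleus is expelled. In mice, loss of Ccnd3 lowers the number of these divisions and gives fewer, larger red cells.

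The libraries held 80806663 and 117032607 estimated reads in replicates 1 and 2. Of these, 5.44% and 5.82% fell on nuclear protein-coding genes, or 4.68% and 5.10% of TPM, a level corrected for length that has the same total in each library. The listed members together had 6382 and 9411 reads. All 11 erythroid markers reached 1 TPM in both libraries, with sums of 21056 TPM in replicate 1 and 22786 TPM in replicate 2. All 9 neutrophil markers did so too, with sums of 2052 and 2360 TPM, and all 7 monocyte and macrophage markers, with sums of 212 and 246 TPM. Of 3 megakaryocyte markers only Itga2b did, at 1.13 TPM in replicate 1 and 2.97 TPM in replicate 2. None of 4 B lineage markers did, the highest being Cd79b at 0.51 and 0.84 TPM. None of 3 T cell markers did, and Cd3d and Cd8a were at 0 counts in both. The part of neutrophil, monocyte and any other such cells in the members' levels was not tested. In such bulk RNA, fewer cells of a type and less RNA per cell cannot be told apart. All 6 proliferation markers reached 1 TPM, from 3.06 TPM for the cyclin Ccnb1 to 44.7 TPM for Mki67 in replicate 1.

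Of the 10 members, 6 stood at 1 TPM or more in both libraries. These were Ccnd3, Ccna2, Cdk4, Cdkn1b, Cdkn2c and Cdkn2d. Of all 21461 nuclear protein-coding genes, 14.5% did so. Just inside that limit was Cdkn2c, with 1.78 and 1.30 TPM in replicates 1 and 2. Just outside were Ccne1, with 2.96 and 0.99 TPM, and Cdk6, with 0.97 and 1.88 TPM. The median member stood at 2.57 and 1.74 TPM, against 0.67 and 0.74 TPM over the 10012 genes kept by an expression filter.

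The inhibitor Cdkn1b led, then Ccna2, Ccnd3 and Cdk4. By deposited TPM, each of these 4 lay above the next one without overlap of the libraries' values. By the posterior mean, and by coding transcripts alone, Ccna2 and Ccnd3 overlapped, and by coding transcripts Cdk4 overlapped Cdkn2d. Ccne1, Cdkn2d, Cdkn2c and Cdk6 followed, and each overlapped its neighbour, so their order was not resolved by 2 libraries. Ccnd2 and Cdkn1a came last, each below the gene before it without overlap.

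**Figure D1:**
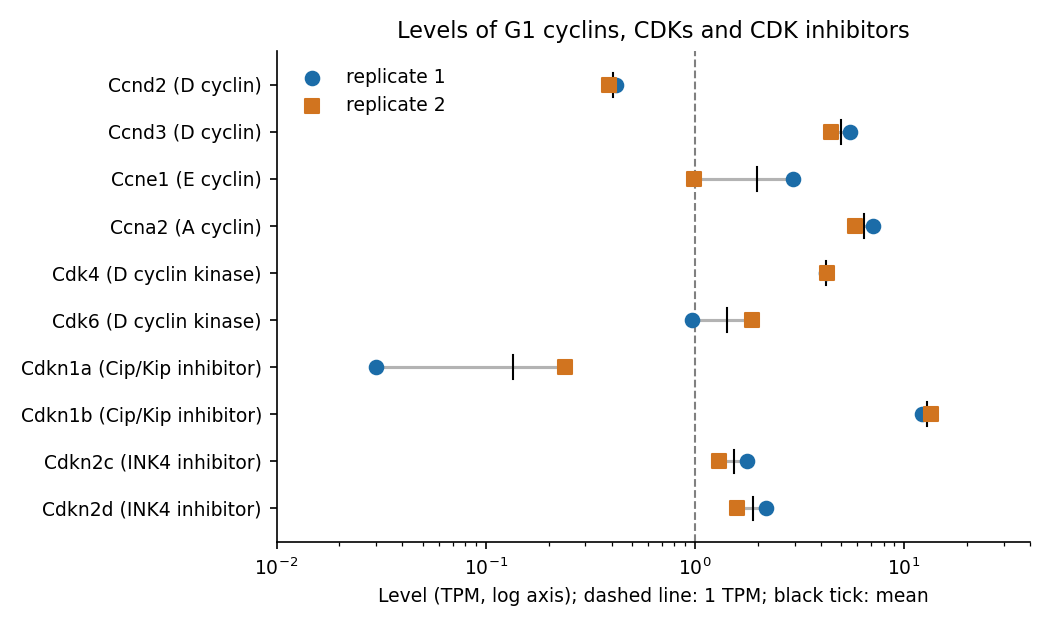
Level of each member in TPM on a log axis, with a circle for replicate 1, a square for replicate 2 and a black tick at their mean. Cdkn1b lies highest, at 12.3 and 13.5 TPM, and Cdkn1a lowest, with the widest gap between the libraries.

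Among the D cyclins, which pair with Cdk4 and Cdk6 at the start of G1, Ccnd3 was far more abundant than Ccnd2. Ccnd3 (ENSMUSG00000034165, chromosome 17, 47505051 to 47599691, plus strand, mm10) stood at 5.55 TPM in replicate 1 and 4.46 TPM in replicate 2, from 743 and 880 reads. Its mean of 5.00 ± 0.771 TPM (SD, n = 2) lies high among nuclear protein-coding genes, of which 96.4% were lower in replicate 1 and 95.1% in replicate 2. Ccnd2 (ENSMUSG00000000184, chromosome 6, 127125162 to 127152193, minus strand) stood at 0.42 and 0.39 TPM, from 167 and 230 reads. These values are nearly equal and both are under the 1 TPM limit. The TPM of Ccnd3 was 13.2 times that of Ccnd2 in replicate 1 and 11.4 times in replicate 2, a log2 ratio of 3.62 ± 0.15. In reads with no length correction the log2 ratio was 2.04 ± 0.15, since the quantified Ccnd2 transcript is 5701 bases long and the leading Ccnd3 transcript 1977 bases. The last 361 bases of the Ccnd3 gene span overlap Bysl on the opposite strand, and it is not given in the sources used here whether reads were counted by strand.

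Ccnd3 has annotated start sites in 2 places, 88416 bases apart, and its reads were assigned almost wholly to the downstream one. The leading transcript, Ccnd3-205 (47593470 to 47599689), had 714 of the 743 reads of replicate 1 and 842 of the 880 of replicate 2, or 97.0% and 97.6% of the gene's TPM. The 13 transcripts from the upstream starts together had 2 and 1.24 reads. Coding sequence begins in an exon that the forms share, so Ccnd3-205 and the upstream transcript Ccnd3-201 have the same coding length of 879 bases and differ in untranslated sequence. By the posterior mean, another deposited estimate of TPM, the upstream transcripts held 14.8% and 14.9% of the gene's TPM. The sequences around both starts are shown to give the context of the start that leads and of the one that does not. Each window runs from 250 bases before to 50 bases from the annotated start, from RefSeq on GRCm38.p6. Capitals mark GC boxes (GGGCGG) and CCAAT boxes (CCAAT), searched on both strands.
Ccnd3 downstream start, chr17:47593217-47593516, plus strand: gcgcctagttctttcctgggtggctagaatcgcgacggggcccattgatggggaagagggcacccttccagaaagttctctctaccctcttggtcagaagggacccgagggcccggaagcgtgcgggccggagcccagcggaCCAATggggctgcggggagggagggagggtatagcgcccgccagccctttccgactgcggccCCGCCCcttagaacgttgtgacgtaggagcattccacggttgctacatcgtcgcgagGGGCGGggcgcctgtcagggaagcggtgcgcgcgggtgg
Ccnd3 upstream start, chr17:47504801-47505100, plus strand: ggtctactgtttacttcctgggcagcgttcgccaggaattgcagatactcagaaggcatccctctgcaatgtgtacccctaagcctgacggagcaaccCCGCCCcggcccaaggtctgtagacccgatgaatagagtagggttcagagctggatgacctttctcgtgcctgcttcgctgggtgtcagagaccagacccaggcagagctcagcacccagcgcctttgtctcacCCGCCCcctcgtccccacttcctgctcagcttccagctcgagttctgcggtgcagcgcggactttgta
The downstream window held 28 CpG and 67.0% G or C, and the upstream window 15 CpG and 59.3%. Over all 32851 windows of the table the medians were 7 CpG and 52.7%. Both windows held 2 GC boxes, a motif found in 35.7% of all windows, and the downstream window also held 1 CCAAT box, found in 37.4%. The E2F letters TTTCCCGC or TTTGGCGC, found in 1.56% of windows, the GATA letters AGATAA, found in 11.2%, and the TATA letters TATAAA, found in 13.6%, were in neither window. Such a match or its lack describes these letters only.

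Of the cyclins of S phase entry, Ccna2 was abundant, while the level of Ccne1 depended on a short transcript. Ccna2 (ENSMUSG00000027715, chromosome 3, 36564865 to 36572150, minus strand), the A cyclin of S and G2 phase, stood at 7.11 TPM in replicate 1 and 5.85 TPM in replicate 2, from 1328 and 1592 reads. Its mean was 6.48 ± 0.891 TPM (SD, n = 2). The coding transcript Ccna2-201 led with 88.4% and 87.7% of the TPM. A noncoding form, Ccna2-204, spans 36565635 to 36566845 and held 11.3% and 12.3% of the TPM from 47.4 and 61.1 reads. The 3′ end of Ccna2 overlaps 863 bases of the Exosc9 gene span on the opposite strand, which had 193 and 96.7 reads.

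Ccne1 (ENSMUSG00000002068, chromosome 7, 38097984 to 38107534, minus strand), the E cyclin that activates Cdk2, stood at 2.96 TPM in replicate 1 and 0.99 TPM in replicate 2. Its reads were 205 in replicate 1 and 181 in the deeper replicate 2. Scaled by TMM, a factor for library composition, its counts were 1.77 times higher in replicate 1, a smaller difference than that of its TPM. In replicate 1, 40.5 reads were assigned to Ccne1-205, a noncoding fragment of 462 bases inside the gene. Through its short length, that fragment took 57.9% of the gene's TPM and led the gene. In replicate 2 it had 0 reads, and the coding transcript Ccne1-201 of 2000 bases led with 91.1%. Summed over coding transcripts alone, a scale chosen after seeing the data, Ccne1 stood at 1.22 TPM in replicate 1 and 0.90 TPM in replicate 2. That is 1.36 times higher in replicate 1, against 2.99 times by the TPM of the gene. Ccne1 was the only member whose leading transcript differed between the libraries.

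The kinases that D cyclins activate were both present, and their ratio depended on which transcripts were counted. Cdk4 (ENSMUSG00000006728, chromosome 10, 127063534 to 127067920, plus strand) stood at 4.22 TPM in replicate 1 and 4.31 TPM in replicate 2, from 356 and 673 reads. These TPM are the closest of any member in relative terms, though its TMM-scaled counts, 1.21 times higher in replicate 2, are not. Cdk6 (ENSMUSG00000040274, chromosome 5, 3341485 to 3531008, plus strand) stood at 0.97 and 1.88 TPM, from 250 and 638 reads. Cdk6 was higher in replicate 2 on each of the scales drawn in the plot of library ratios. By TPM, Cdk4 exceeded Cdk6 by 4.35 times in replicate 1 and 2.29 times in replicate 2, a log2 ratio of 1.66 ± 0.65. With coding transcripts alone the log2 ratio was 0.66 ± 0.36, and in reads it was 0.29 ± 0.31, a value within its own spread of 0.

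Much of the Cdk4 TPM lay on transcripts annotated as retaining an intron. The coding transcript Cdk4-201 held 43.2% of the TPM in replicate 1 and 57.8% in replicate 2, at 1.82 and 2.49 TPM. Of the gene's reads, Cdk4-201 held 70.8% and 74.7%. Cdk4-209, a fragment of 468 bases from the end of the gene (127066076 to 127067235), held 39.8% and 26.9% from only 40.3 and 39.0 reads. By the posterior mean it stood at 1.77 TPM in replicate 1, just above the 1.73 TPM of Cdk4-201, and at 1.20 TPM against 2.42 TPM in replicate 2. Cdk4-207, which spans most of the gene, held 9.27% and 15.2%. The last 641 bases of Cdk4 overlap Tspan31 on the opposite strand, which had 106 and 215 reads.

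Cdk6 was quantified on 2 coding transcripts with the same coding length of 981 bases. Cdk6-202 held all 250 reads of replicate 1, and 498 reads or 69.8% of the TPM in replicate 2. Cdk6-201 had 0 reads in replicate 1 and 140 reads, or 30.2% of the TPM, in replicate 2. Cdk6-202 is 3735 bases long in the deposited tables and 11525 bases in the later release GENCODE M21. The added 7790 bases bear on the level of Cdk6, and their part in it was not tested.

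The Cip/Kip inhibitors, which bind cyclin and kinase complexes, lay at opposite ends of the list. Cdkn1b (ENSMUSG00000003031, chromosome 6, 134920401 to 134925513, plus strand), which encodes p27 and is known to build up as erythroid cells leave the cycle, stood at 12.3 TPM in replicate 1 and 13.5 TPM in replicate 2. It had 3011 and 4825 reads, the most of any member, and lay above 98.3% of nuclear protein-coding genes in each library. Rescaled to nuclear protein-coding genes, it stood at 262 and 265 TPM. Cdkn1a (ENSMUSG00000023067, chromosome 17, 29090976 to 29100727, plus strand), a target of the p53 protein that encodes p21, stood at 0.03 and 0.24 TPM. It had 4 reads in replicate 1 (95% exact Poisson interval 1.09 to 10.2) and 45 in replicate 2 (32.8 to 60.2). The reads came from a single transcript, Cdkn1a-201, in both libraries. Those intervals do not overlap, and they cover counting error only, since PCR copies were not marked by molecular identifiers. By TPM, Cdkn1b exceeded Cdkn1a by 409 times in replicate 1 and 56.4 times in replicate 2, so the order held in both libraries while its size did not.

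Cdkn1b was split nearly evenly between 2 transcripts with the same start, end and coding length of 594 bases. Cdkn1b-202 held 53.4% of the TPM in replicate 1 and 52.0% in replicate 2, from 2083 and 3280 reads. Cdkn1b-201 held 46.6% and 48.0%, from 928 and 1545 reads. The forms differ by 2159 bases of the 3′ untranslated region, which Cdkn1b-201 splices out. Their shares moved by 1.48 percentage points between the libraries, so the split was alike in both.

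The INK4 inhibitors, which bind Cdk4 and Cdk6, were close to each other and lower in TPM than Cdkn1b. Cdkn2d (ENSMUSG00000096472, chromosome 9, 21288410 to 21291407, minus strand) stood at 2.18 TPM in replicate 1 and 1.60 TPM in replicate 2, from 178 and 190 reads. Cdkn2c (ENSMUSG00000028551, chromosome 4, 109660876 to 109667189, minus strand) stood at 1.78 and 1.30 TPM, from 140 and 157 reads. In replicates 1 and 2, Cdkn2d lay above 91.6% and 87.9% of nuclear protein-coding genes, and Cdkn2c above 89.8% and 85.5%. Both were higher in replicate 1, and Cdkn2d was 1.22 and 1.23 times Cdkn2c within the libraries, a log2 ratio of 0.30 ± 0.01. Between libraries their ranges overlap, and Cdkn2d in replicate 2 was below Cdkn2c in replicate 1. The remaining INK4 genes, Cdkn2a and Cdkn2b, had 0 counts in both libraries.

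Cdkn2c has 2 annotated starts, and its shorter form led. Cdkn2c-201, of 1106 bases, had 113 of 140 reads in replicate 1 and 114 of 157 in replicate 2, or 90.9% and 86.6% of the TPM. Cdkn2c-202, of 2471 bases, starts 1817 bases further upstream in GENCODE M21 and had 27.1 and 42.9 reads, or 9.07% and 13.4% of the TPM. By reads the shorter form also led, with 80.7% and 72.7%, though the sharing out of reads between the forms is itself an estimate. Both forms have the same coding length of 507 bases. The window around the downstream RefSeq start is shown because it is the start of the leading form to the base.
Cdkn2c downstream start, chr4:109665323-109665622, minus strand: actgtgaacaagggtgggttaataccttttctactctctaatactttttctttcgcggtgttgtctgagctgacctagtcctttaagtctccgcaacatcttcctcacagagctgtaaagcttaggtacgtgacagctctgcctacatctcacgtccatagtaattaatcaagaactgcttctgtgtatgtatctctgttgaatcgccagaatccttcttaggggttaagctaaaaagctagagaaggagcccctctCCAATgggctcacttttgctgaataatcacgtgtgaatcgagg
Capitals again mark GC boxes and CCAAT boxes on either strand. This window held 8 CpG, 44.0% G or C, no GC box and 1 CCAAT box. The window around the upstream RefSeq start, 1384 bases away, lies wholly in the untranslated first exon of Cdkn2c-202 and is not printed. It held 33 CpG, 73.3% G or C and 4 GC boxes. Neither window held the E2F, GATA or TATA letters. For Ccnd3 the leading transcript started at the window richer in CpG, and for Cdkn2c at the poorer one.

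Cdkn2d was quantified on 1 transcript, Cdkn2d-201, of 1271 bases in the tables. GENCODE M21 gives it a coding length of 153 bases with the stop codon, and gives 501 bases to Cdkn2d-203, which the tables do not list. Cdkn2d-202, whose annotated coding sequence runs to the very end of the transcript, is not listed either. The level of Cdkn2d therefore rests on how well Cdkn2d-201 matches the RNA, which was not tested.

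Across the members, 23 of the 50 transcript rows had any reads. All 6 detected members (1 TPM or more in both libraries) had the same leading transcript in both libraries, which for Cdkn2d was fixed by its single transcript row. By the posterior mean 5 of them did, as Cdk4-209 then led Cdk4 in replicate 1. The same share over all genes at that limit was not computed, so these counts do not set the members apart. The transcripts whose share differed by over 20 percentage points between the libraries were those of Ccne1 and Cdk6, and both genes lay just outside the 1 TPM limit in 1 library. For Ccnd2, Cdk6 and the 4 inhibitors the tables list protein-coding transcripts only, so no noncoding share could be measured.

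**Figure D2:**
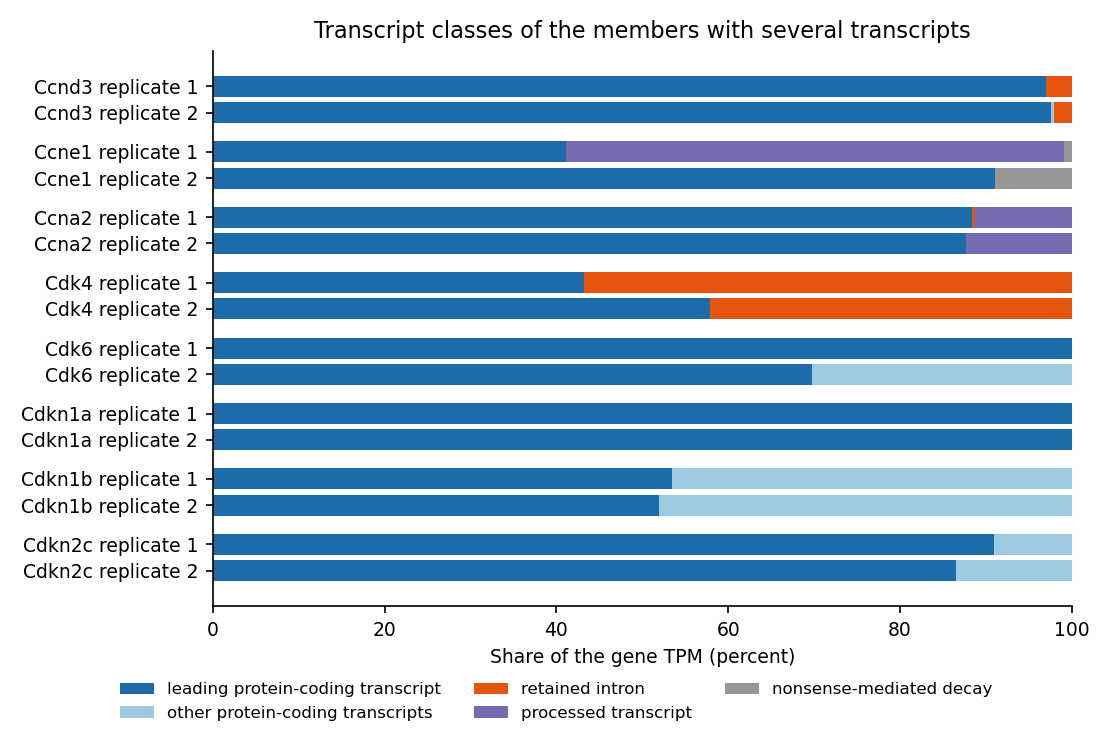
Share of each gene's TPM, in percent, by transcript class for the 8 members with more than 1 transcript, 1 bar per library. Ccne1 in replicate 1 and Cdk4 in both libraries carry large noncoding shares, while for Cdk6 and the inhibitors the tables list no noncoding transcript.

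The libraries were compared on counts scaled by TMM (edgeR's factor for library composition). Of the 9 members kept by the filter, 0 differed by over 2 times, against 18.4% of all 10012 genes kept, 9.29% higher in replicate 2 and 9.07% higher in replicate 1. Cdkn1a was not kept. Of the 9, 3 were higher in replicate 2 and 6 in replicate 1. With a mean of at least 100 counts, as those 9 members have, 7.67% of genes differed by over 2 times, so 0 of 9 is near the background. On a limit of 1.5 times, Ccne1 and Cdk6 differed, 2 of 9 against 37.5% of all genes kept. That share was not computed for genes with a mean of at least 100 counts, so it is not matched to the members' depth. The median log2 ratio of replicate 2 to replicate 1 was -0.38 over the 9 members and 0.00 over all genes kept.

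For 7 of the 9 kept members, the counting interval of the TMM-scaled ratio left out 1. The same share over all genes kept was not computed, so this count does not set the members apart. Ccne1 was 1.77 times higher in replicate 1 (95% interval from the exact binomial split of reads, 1.44 to 2.18). Cdkn2d was 1.47 times (1.19 to 1.81), Cdkn2c 1.40 times (1.10 to 1.76), Ccnd3 1.32 times (1.20 to 1.46) and Ccna2 1.31 times (1.21 to 1.41) higher in replicate 1. Cdk6 was 1.63 times (1.41 to 1.89) and Cdk4 1.21 times (1.06 to 1.38) higher in replicate 2. The ratios of Ccnd2, at 0.880 (0.718 to 1.08), and of Cdkn1b, at 1.02 (0.978 to 1.07), replicate 2 over replicate 1, had intervals that hold 1. The direction of Cdk4, Cdk6 and Cdkn1b turned, with ratios of 0.528, 0.713 and 0.448, when counts were scaled to the spike-in total, which held 1790 reads in replicate 1 and 6408 in replicate 2 and moved the median log2 ratio of all genes to -1.20. These intervals leave out the spread between samples, which genes of like depth show. Among 3079 genes with a mean of 100 to 300 reads, where Ccnd2, Ccne1, Cdkn2c and Cdkn2d lie, the median gene was 1.34 times apart. Among 1868 genes with 300 to 1000 reads, where Ccnd3, Cdk4 and Cdk6 lie, it was 1.20 times apart, and 2.14% were over 2 times apart. For genes at the depth of Ccna2 the value was 1.11 times, and at that of Cdkn1b 1.07 times. Ccnd2 and Cdkn1b were closer than the median gene of their depth, and the other 7 kept members were further apart.

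**Figure D3:**
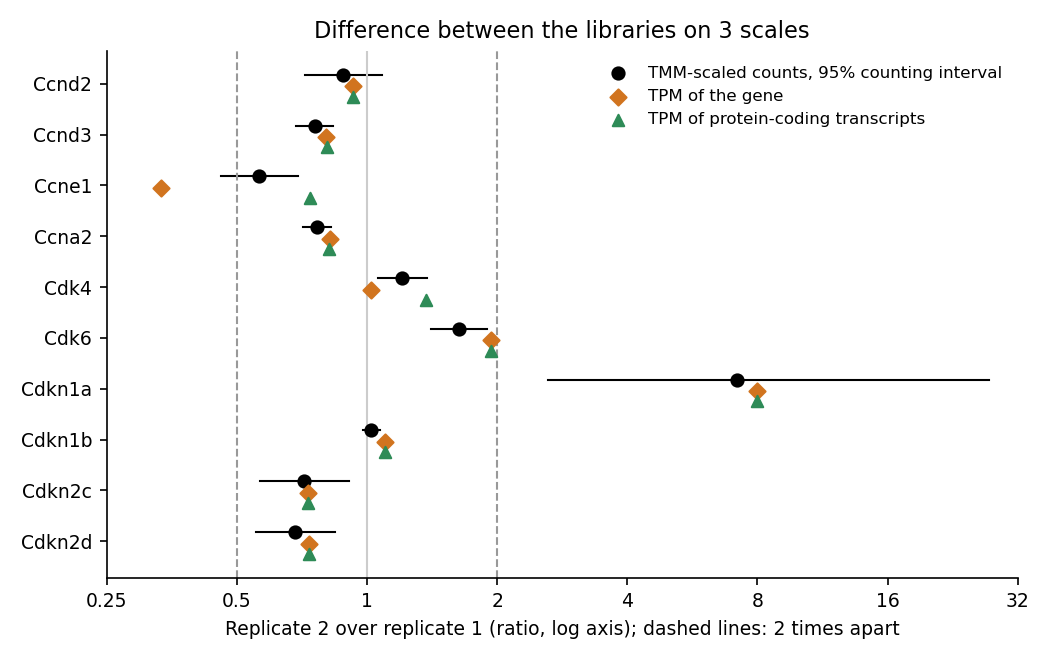
Ratio of replicate 2 to replicate 1 for each member on a log axis: TMM-scaled counts with a 95% counting interval (black), TPM of the gene (orange) and TPM of its protein-coding transcripts (green). The scales part most for Ccne1, Cdk4 and Cdk6. Noncoding fragments of Ccne1 and Cdk4 change the length that TPM divides by, and for Cdk6 the split between its coding transcripts does so. Cdkn1a lies far to the right on 4 and 45 reads.

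**Figure D4:**
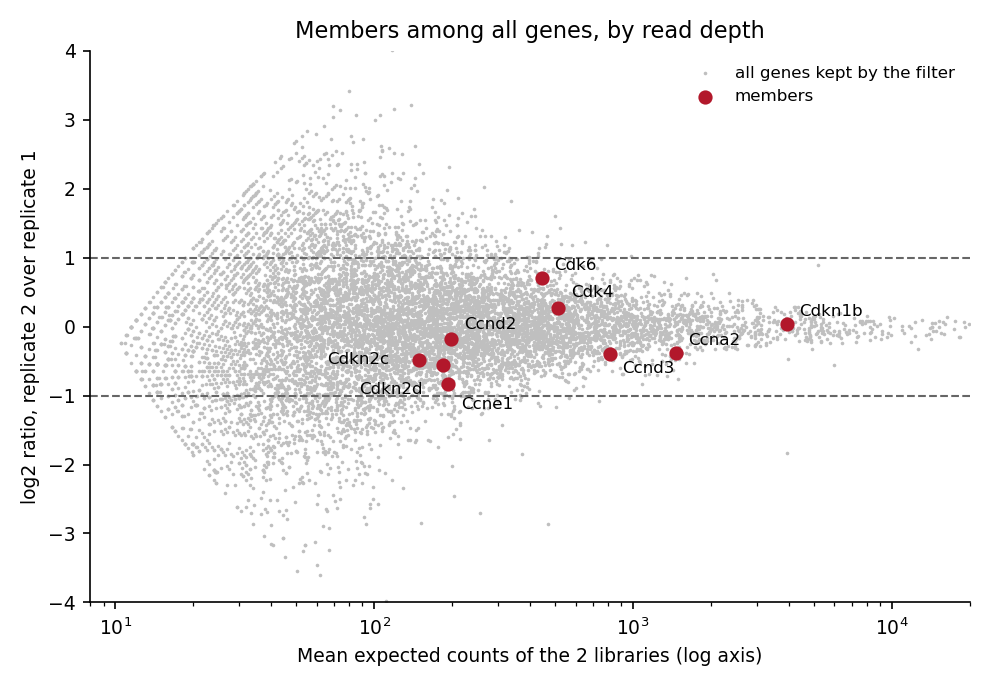
Log2 ratio of replicate 2 to replicate 1 against mean estimated counts (log axis) for the genes kept by the filter (grey) and the 9 members among them (red). The members lie between the dashed lines at 2 times, within the cloud of genes of like depth, with Cdkn1b nearest to 0 at the greatest depth.

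Cdkn1a, too shallow for the filter, had the widest ratio. It was 7.19 times higher in replicate 2 (2.62 to 27.5) on TMM-scaled counts. Among 1965 genes with a mean of 10 to 30 reads, the median gene was 2.26 times apart and 56.6% were over 2 times apart.

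Of 26 other genes of G1 and S phase entry, 9 stood at 1 TPM or more in both libraries. Their median was 0.55 TPM in replicate 1 and 0.595 TPM in replicate 2. Among cyclins, Ccne2, the second E cyclin, stood at 2.24 and 1.99 TPM, above Ccne1 in replicate 2 and below it in replicate 1. Ccnd1, the third D cyclin, stood at 0.05 and 0.04 TPM from 12.8 and 15.6 reads. Ccna1, an A cyclin known from the germ line, had 0 counts throughout. The limit used for a count of 0 is 3 counts, a 1-sided bound below that of the 2-sided intervals given for Cdkn1a, and comes to 0.0291 TPM in replicate 1 and 0.0200 TPM in replicate 2. The Cip/Kip gene Cdkn1c also had 0 counts, with a limit of 0.0235 and 0.0161 TPM. For the INK4 genes Cdkn2a and Cdkn2b the limits were 0.0564 and 0.0392 TPM, and 0.0331 and 0.0228 TPM. Cdk2, the partner of E and A cyclins, stood at 1.46 and 1.14 TPM, and the mitotic kinase Cdk1 at 1.42 and 0.94 TPM.

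By mean TPM, the highest 5 of the remaining listed genes were a target of the D cyclin kinases, Rb1, and E2F and DP genes. Tfdp2, a partner subunit of E2F factors, stood at 47.1 TPM in replicate 1 and 44.8 TPM in replicate 2. The retinoblastoma gene Rb1, which the kinases inactivate, stood at 11.6 and 12.0 TPM, near the level of Cdkn1b. E2f2, an activator known for its role in erythroid cell cycle exit in mice, stood at 11.8 and 11.8 TPM, and E2f4, known for its role in fetal erythroid growth in mice, at 9.93 and 10.2 TPM. The other DP gene, Tfdp1, stood at 5.40 and 3.86 TPM, below Cks1b, at 4.16 TPM, in replicate 2. The lowest by mean TPM were E2f5, with 2 and 1 reads, and the ubiquitin ligase gene Fbxw7, whose product targets E cyclins, with 75 and 17 reads. Fbxw7 stood at 0.27 TPM in replicate 1, above Cdk7, E2f3 and E2f6 there, and at 0.04 TPM in replicate 2. Fbxw7 was the only one of the 21 kept genes of this list that differed by over 2 times between the libraries, against 18.4% of all genes. That share is not matched for depth. Among genes with a mean of 30 to 100 reads, where Fbxw7 lies, 37.7% were over 2 times apart.

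**Figure D5:**
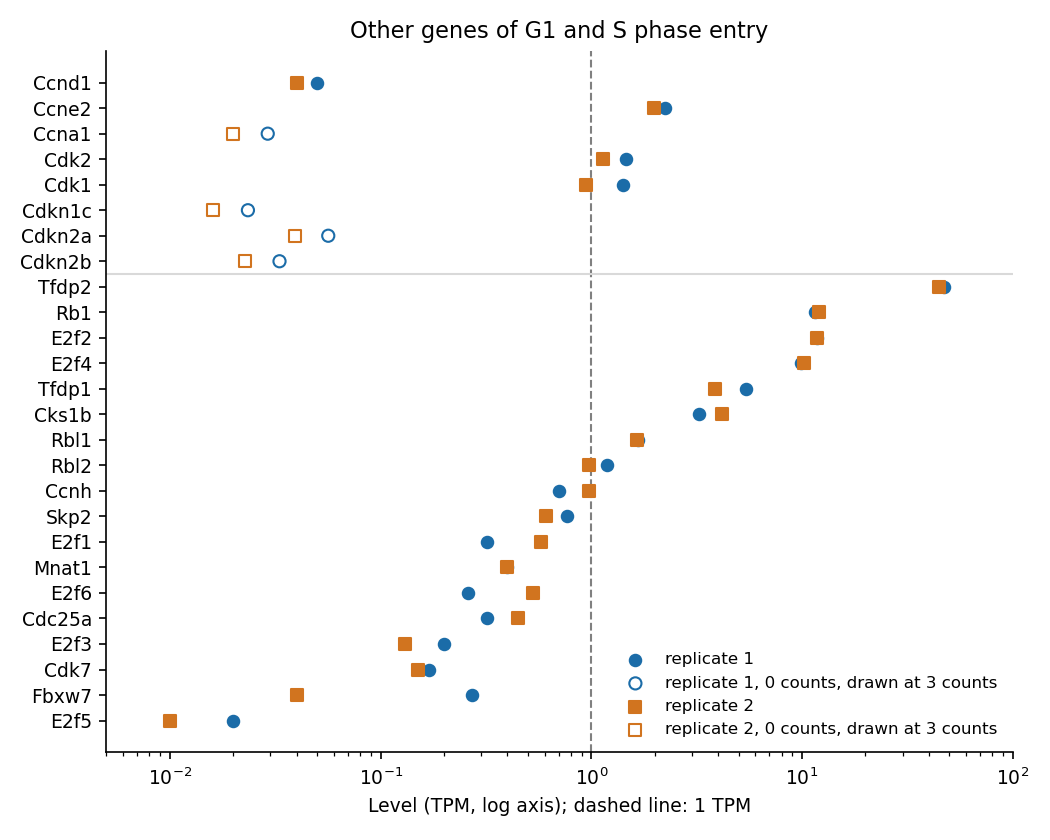
Level in TPM (log axis) of 26 other genes of G1 and S phase entry in replicate 1 (circles) and replicate 2 (squares). Above the grey line are Ccnd1, Ccne2, Ccna1, Cdk2, Cdk1, Cdkn1c, Cdkn2a and Cdkn2b, and Cdk7 and Ccnh lie below it with the rest. Open symbols are genes with 0 counts, drawn at the level of 3 counts, and Tfdp2 lies highest.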

How the data were processed

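Total RNA-seq of 2 erythroblast libraries, each from 1 ng of RNA, was analysed from deposited gene and transcript tables, made on mm10 with GENCODE M4 per the read-me that came with them. Names of an aligner and a quantifier were not given in the sources used here. Expected counts, as deposited, estimate the reads of a feature and share out reads that match several places. TPM and FPKM values are the authors' own, with TPM scaled over every row of a table, spike-ins included, and FPKM served only as an alternative. The percent of a gene's TPM on each transcript was also deposited by the authors.

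Rows were matched by Ensembl identifier to GENCODE M21 on the same build (42462 of 43346 gene rows), which gave names and coordinates. Counts were rounded for edgeR 4.0.16 (filter, TMM; 10012 genes kept) and DESeq2 1.42.0 (size factors). The filter was edgeR's default. Intervals are exact, at 95%, and depth was 80806663 and 117032607 counts. The ratio step was tested on simulated data. Spike-in rows were left out of gene results. Named genes were all 10 members. Of the other G1 genes they were 8 (the D, E and A cyclins, Cdk1, Cdk2 and the inhibitors), and of the rest the 5 highest and 2 lowest. Transcripts were named if leading, if second with 10% or more of the TPM, or if shares differed by over 20 points; others named were chosen after their values were seen. Members and lists were chosen with earlier results of these data known.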

Additional observations from a re-analysis of the deposited data

How the results depend on the processing

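The count of 6 detected members was 4 at a limit of 2 TPM, 8 at 0.5 TPM and 9 by at least 10 counts. The shares of all genes at those limits were not computed, so those counts do not set the members apart. In either library alone 7 members reached 1 TPM, against 16.6% of nuclear protein-coding genes in replicate 1 and 17.8% in replicate 2. The count of 0 members over 2 times apart was 7 on the spike-in total and 1 with no filter on low counts (Cdkn1a). The share of all genes on these settings was not computed, so these counts do not set the members apart. The count was 1 by deposited TPM (Ccne1, against 21.0% of genes) and 2 on the limit of 1.5 times (against 37.5%). It stayed at 0 with DESeq2 size factors, the library total, the nuclear protein-coding total, a mean of at least 100 counts, and coding TPM, the last chosen after seeing the data. The shared shift under spike-in scaling lies in all genes, with a median log2 ratio of -1.20; its cause was not tested. The log2 ratio of Ccnd3 to Ccnd2 was 2.04 in counts, 3.79 by the posterior mean and 2.09 on log2(TPM + 1). That of Cdk4 to Cdk6 was 0.29 in counts and 0.66 with coding transcripts only. That of Cdkn1b to Cdkn1a was 3.62 on log2(TPM + 1), and that of Cdkn2d to Cdkn2c was 0.31 in counts, 0.29 by the posterior mean and 0.19 on log2(TPM + 1). No ratio changed sign under these settings. The pseudocount pulls ratios of low genes toward 0 by its construction. Rescaled to nuclear protein-coding genes, all 10 levels were higher, by the construction of that scale. No paired analysis was possible because the libraries form 1 group. Depth limits Cdkn1a most, with 4 reads in replicate 1.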

Other observations

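GENCODE M21 lists 17 transcripts of 6 members that the deposited tables do not hold, 7 of them for Ccnd2 and 4 for Cdk6. The Ccnd2 transcript that was quantified is 6330 bases long there, against 5701 bases in the tables. The progenitor gene Myb stood at 3.68 TPM in replicate 1 and 5.17 TPM in replicate 2, Kit at 1.12 and 1.00 TPM and Cd34 at 0.67 and 0.77 TPM.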
